A study of Mus musculus with 96 samples.

Results

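The genes described are 10 markers of astrocytes, chosen by name and not by a threshold on measured values: Gfap, Aqp4, Slc1a2, Slc1a3, Aldh1l1, Gja1, Gjb6, S100b, Aldoc and Sox9. They are 10 of the 55335 gene identifiers in the count matrix, and all 10 passed the filter on low counts in every fit. They were followed through 96 libraries of nuclear RNA from mouse visual cortex, with 2 questions: how much of their RNA remained in sorted VIP nuclei, and how they responded to light in total nuclei. VIP nuclei come from cortical interneurons that make vasoactive intestinal peptide, and total nuclei are an unselected sample of the same tissue.

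Every mouse carried Igf1-E1 fl/fl, Igf1-E23 fl/fl or Igf1-E123 fl/fl together with VIP flp/wt. The lines are called E1, E23 and E123 after the Igf1 enhancers that Cre can remove, and the recombinase Flp is made from 1 Vip allele. All mice received an AAV in the visual cortex at 55 to 60 days of age, either AAV-Syn1-fDIO-mScarlet-KASH-2a-Cre or the same vector with dCre, an inactive Cre. The construct needs Flp and uses the neuronal Syn1 promoter, so it is aimed at VIP neurons and not at astrocytes. Dark housing began 3 days later and lasted 10 to 12 days, and the light groups then saw light for 1 h. In each fraction there were 13 light and 11 dark dCre libraries, and 12 light and 12 dark Cre libraries. Groups by line held 3 to 5 libraries each, and the labels call them biological replicates.

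Each library was made from 50 to 100 nuclei. Total libraries held 1881731 to 8972526 counts and VIP libraries 1559883 to 9122515. Levels are in CPM, the usual scaling of counts by normalised library size, and differences are log2 fold changes with their standard error. A gene was called where the adjusted p of the edgeR quasi-likelihood test was under 0.05. A count of 3, taken as the limit that a count of 0 allows, corresponds to 0.334 to 1.59 CPM in total and 0.329 to 1.92 CPM in VIP libraries, for counting error only. The sort was visible in the marker lists: 13 of 13 VIP markers and 10 of 10 GABAergic markers were higher in VIP nuclei. The dark dCre libraries of E1 replicates 1 and 2 and of E123 replicates 1 and 2 stood apart in both fractions. The difference between long genes (over 100 kb) and short genes (under 10 kb) in mean log2(CPM + 1) is called the length index here. It was 3.72 to 4.29 in these libraries, while all other single libraries lay between 1.25 and 3.27. Same-numbered total and VIP libraries of a group carry the same sex label in 48 of 48 cases and are called 1 animal here, which the labels do not state. Some results that rest on these 4 animals are also given without them. For light in total nuclei under dCre, ranges over alternative analyses that include those fits are given instead.

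Astrocytes are glial cells that clear glutamate and potassium from around synapses, carry water and metabolites between blood and neurons, and are joined into networks by gap junctions. Grey matter astrocytes of the adult cortex make much glutamate transporter RNA and little Gfap, an intermediate filament that rises when astrocytes become reactive. The other members are the water channel of the astrocyte endfoot (Aqp4), the glutamate transporters GLT-1 (Slc1a2) and GLAST (Slc1a3), a folate enzyme (Aldh1l1), connexins 43 and 30 (Gja1, Gjb6), a calcium-binding protein (S100b), the glycolytic enzyme aldolase C (Aldoc) and a transcription factor of glial cells (Sox9).

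In the GENCODE annotation of GRCm38 all 10 members are protein-coding. Gfap lies on chromosome 11 from 102887336 to 102900912, Aldoc on the same chromosome from 78322968 to 78327781 and Sox9 from 112782224 to 112787760. Gja1 lies on chromosome 10 from 56377330 to 56402513 and S100b from 76253853 to 76261159. Slc1a2 spans 102658659 to 102790784 on chromosome 2, Slc1a3 spans 8634124 to 8710764 on chromosome 15, Aldh1l1 spans 90486427 to 90600203 on chromosome 6 and Gjb6 spans 57123303 to 57133611 on chromosome 14. The chemistry does not mark the strand, and Gfap, Aqp4, Slc1a2, Aldh1l1 and S100b each overlap a gene on the opposite strand, so reads of such pairs cannot be told apart. Gja1, Gjb6, Aldoc and Sox9 overlap no other gene.

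The 250 bases before the RefSeq start are shown for the 4 members on which the results below turn: Slc1a3 and Gja1, which followed each other most closely from library to library, and Gfap and S100b, which were called in the light comparisons. They are taken from the RefSeq promoter table for GRCm38.p6 and run 5′ to 3′ on the strand of the gene. The windows are chr11:102897201-102897450 (minus strand, Gfap), chr15:8710808-8711057 (minus strand, Slc1a3), chr10:56377050-56377299 (plus strand, Gja1) and chr10:76253586-76253835 (plus strand, S100b). Capitals mark a match to 1 of 5 motifs on either strand.
Gfap: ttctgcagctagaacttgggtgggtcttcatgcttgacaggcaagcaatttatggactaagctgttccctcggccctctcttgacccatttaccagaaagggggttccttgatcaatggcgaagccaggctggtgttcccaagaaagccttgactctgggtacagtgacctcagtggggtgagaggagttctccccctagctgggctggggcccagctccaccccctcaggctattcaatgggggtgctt
Slc1a3: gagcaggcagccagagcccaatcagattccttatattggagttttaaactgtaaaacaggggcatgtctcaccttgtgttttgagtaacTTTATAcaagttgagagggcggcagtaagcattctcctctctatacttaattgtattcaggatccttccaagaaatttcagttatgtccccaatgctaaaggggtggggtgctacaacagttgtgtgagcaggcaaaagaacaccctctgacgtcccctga
Gja1: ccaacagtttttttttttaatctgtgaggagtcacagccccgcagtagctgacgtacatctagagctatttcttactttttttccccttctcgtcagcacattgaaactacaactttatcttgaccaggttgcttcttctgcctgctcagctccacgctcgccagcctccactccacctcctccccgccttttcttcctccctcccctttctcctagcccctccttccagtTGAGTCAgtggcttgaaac
S100b: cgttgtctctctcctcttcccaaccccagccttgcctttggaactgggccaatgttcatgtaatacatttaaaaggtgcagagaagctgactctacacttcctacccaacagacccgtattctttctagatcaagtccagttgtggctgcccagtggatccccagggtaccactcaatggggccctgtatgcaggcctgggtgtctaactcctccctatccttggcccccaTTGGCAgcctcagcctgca

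The AP-1 motif TGANTCA was found in Gja1, the short NFI motif TTGGCA in S100b and the TATA motif TATAAA, on the opposite strand, in Slc1a3. Of 32851 promoter windows of the same length, 6.75% held the AP-1 motif, 12.3% the NFI motif and 12.4% the TATA motif. The cyclic AMP response element TGACGTCA, in 1.55% of windows, and the SOX core ACAATNG, in 6.91%, matched none of the 8 members searched. These are matches of letters and not sites of binding, and the motifs share no bases in the windows shown.

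The first question was how much astrocyte marker RNA the VIP sort left behind. Slc1a3, Gja1 and Sox9 were lower in VIP than in total nuclei, and the other 7 members were not called in either direction. With same-numbered VIP and total libraries as a block, Slc1a2 (−0.22, edgeR adjusted p = 0.0118) and Aldh1l1 (−0.72, edgeR adjusted p = 0.0243) were also lower. In that fit 5 of 10 members were called, and 36.7% of all genes. Over all 22926 genes tested 35.5% were called, 20.7% lower and 14.8% higher, and 3 of 10 members lower is close to that share. By the ratio of mean levels, VIP nuclei held a median of 90.9% of the total-nuclei level over the 10 members, and 59.0% by the ratio of medians. Excitatory markers stood at a median of 28.2%, microglial markers at 24.3% and oligodendrocyte markers at 12.5% by the ratio of means, while GABAergic markers stood at 797%. Endothelial and mural markers stood at 411%, but their summed level was 897 CPM in replicate 2 of the E23 dark Cre VIP libraries and 1.23 to 32.3 CPM in the other 47. Without that library, left out after its value was seen, they stood at 165%. All 14 oligodendrocyte and all 11 microglial markers were called lower. In bulk libraries, fewer cells of a type and less RNA per cell cannot be told apart.

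Among the glutamate transporters, Slc1a3 ranged from 12.9 to 186.0 CPM in total nuclei, with a median of 67.3, and from 0 to 336 CPM in VIP nuclei, with a median of 11.8. The 2 ranges overlapped, but the VIP median lay below the lowest total library. The mean level was 75.4 ± 46.0 CPM (SD, n = 48) in total and 37.5 ± 63.9 CPM (SD, n = 48) in VIP nuclei, a log2 difference of −1.43 ± 0.31 (SE; edgeR adjusted p = 0.000143). The call held in each of 10 alternative analyses, at −2.06 to −1.39. Slc1a2, the most abundant member, was at 360 ± 87.8 CPM in total and 334 ± 176 CPM in VIP nuclei (SD, n = 48 each), and its log2 difference of −0.17 ± 0.089 was not called (edgeR adjusted p = 0.148). Per kb of exon, Slc1a2 was the highest member in total nuclei at 27.4 CPM, followed by Aldoc at 20.1 and Slc1a3 at 8.83, and Sox9 was the lowest at 0.938. In VIP nuclei Aldoc (25.9 CPM per kb) and Slc1a2 (25.5) stood side by side, within their spread.

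Of the connexins, Gja1 was called and Gjb6 was not, and the difference between them was not tested. Gja1 had a median of 19.1 CPM in total nuclei, within 0 to 92.4, and of 6.24 CPM in VIP nuclei, within 0 to 188. Its log2 difference was −1.05 ± 0.40 (edgeR adjusted p = 0.032). Gjb6, whose median was 8.62 CPM in total and 2.36 CPM in VIP nuclei, was not called, at −0.34 ± 0.47 (edgeR adjusted p = 0.708). Leaving out each replicate number gave Gjb6 at −1.71 to 0.064, and without replicate number 3 it was called lower (−1.71, edgeR adjusted p = 0.0432). By the ratio of medians, VIP nuclei held 32.7% of the total level of Gja1 and 27.4% of that of Gjb6. No count of Gjb6 was seen in 15 of 48 VIP libraries, against 5 of 48 total libraries. Sox9 was also often at 0 in VIP nuclei, in 13 of 48 libraries against 1 of 48 in total nuclei. It had a median of 1.85 CPM in VIP and 3.38 CPM in total nuclei and a log2 difference of −0.91 ± 0.34 (edgeR adjusted p = 0.0281). Without the 2 dark dCre animals of E1 that stood apart, the adjusted p was 0.0898 for Gja1 and 0.0945 for Sox9, so both calls ended. The call of Gja1 also ended without replicate numbers 1, 2 or 4, at −1.14 to −1.02, and that of Sox9 without replicate number 1, at −0.79 (edgeR adjusted p = 0.176).

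Gfap and Aldoc, the filament and the glycolytic enzyme, had higher means in VIP nuclei without being called. Gfap was at 10.2 ± 9.78 CPM in total and 22.4 ± 59.1 CPM in VIP nuclei (SD, n = 48 each), with a log2 difference of 0.56 ± 0.34 (edgeR adjusted p = 0.216). Most of that excess came from 1 VIP library, replicate 3 of the E123 light Cre group. It held 399.8 CPM of Gfap, 336 of Slc1a3, 188 of Gja1, 572 of Aldoc and 31.9 of Sox9, the highest value of each among the 96 libraries. Without this library, chosen after its values were seen, the mean VIP level of Gfap fell from 218% to 140% of the total level, that of Aqp4 from 110% to 65.9%, and the median over the members from 90.9% to 72.5%. Slc1a3 went from 49.7% to 41.2%. Aldoc stood at 65.7 ± 31.6 CPM in total and 84.6 ± 100 CPM in VIP nuclei (SD, n = 48 each; log2 difference 0.12 ± 0.22, edgeR adjusted p = 0.828).

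S100b, Aldh1l1 and Aqp4 complete the list. S100b was at 8.76 ± 4.75 CPM in total and 8.69 ± 7.42 CPM in VIP nuclei (SD, n = 48 each), and Aldh1l1 at 13.1 ± 6.88 and 9.53 ± 6.44 CPM. Their log2 differences were −0.43 ± 0.22 (edgeR adjusted p = 0.113) and −0.49 ± 0.23 (edgeR adjusted p = 0.0968). S100b was called lower without replicate number 3 (−0.96, edgeR adjusted p = 0.00429) and Aldh1l1 without replicate number 4 (−0.72, edgeR adjusted p = 0.0368). Aqp4 had a median of 5.74 CPM in total and 2.24 CPM in VIP nuclei, with a log2 difference of −0.53 ± 0.45 (edgeR adjusted p = 0.414), and was at 0 in 12 of 48 VIP libraries. In the per-library levels, the highest library of 9 members was a VIP library, and that of Aldh1l1 was a total library at 34.4 CPM. Slc1a2 was at 0 in no library of either fraction.

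**Figure D1:**
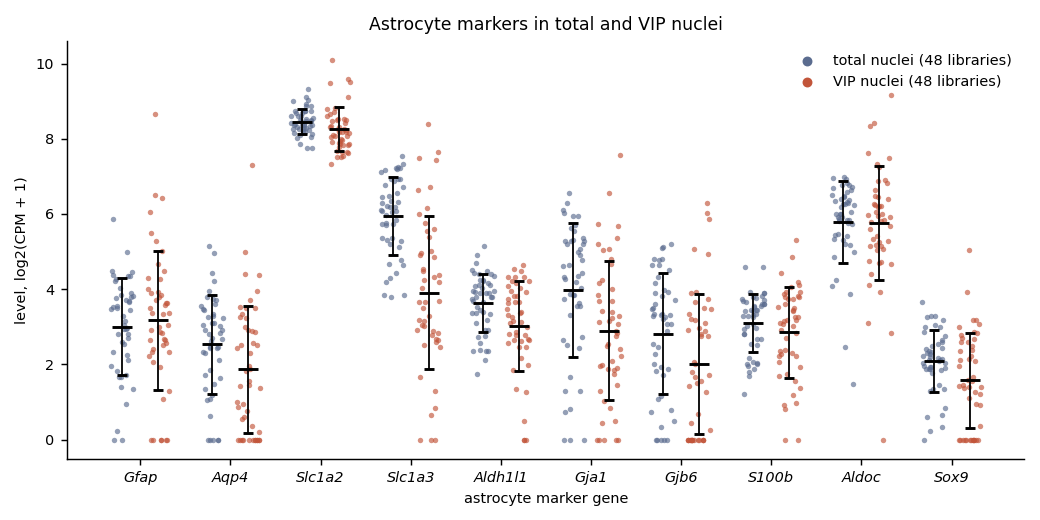
Level of each of the 10 astrocyte markers in total and VIP nuclei as log2(CPM + 1), where each point is a library (48 per fraction) and bars give the mean ± SD. Slc1a3 shows the largest drop, while single VIP libraries reach far above all total libraries, among them Gfap at 399.8 CPM.

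A longer list of 40 other astrocyte genes had 20 members lower and 4 higher in VIP nuclei. Gpc5, a glypican, fell by 2.37 on the log2 scale, and Hepacam, an astrocyte adhesion protein, fell by 1.35. Bcan, a matrix proteoglycan, fell by 1.21, and Ttyh1, a membrane protein, fell by 0.65. Those higher in VIP nuclei were Htra1, a secreted protease (1.85), Slc6a11, a GABA transporter (1.48), Atp1b2, a sodium pump subunit (0.78), and Clu, clusterin (0.57). Of 12 tested genes linked to reactive astrocytes, Stat3 (0.71) and Serpina3n (1.15) were higher and Ggta1 (−1.64) was lower.

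The second question was how the members responded to light in total nuclei. Under dCre, Gfap rose with light and no other member was called. All 10 members had a log2 difference above 0, with a median of 1.09, while the median over the 21213 genes tested was −0.03 and 5.69% of genes were called (3.42% higher). Aldh1l1 was barely above 0, and its sign turned in 12 of 24 fits that left out 1 library. Gja1 turned to −0.027 with the length index as a covariate. Of the 10 members, 6 had an unadjusted p under 0.05, as did 4355 of the 21213 genes. Among 40 other astrocyte genes 6 rose and none fell, with a median of 0.77. They were led by Ttyh1 (0.66), Phkg1 (0.78), Htra1 (1.42) and Mt3 (0.77). Of the reactive genes only Cd44 was called, and it fell by 1.31. Light itself was visible in 16 of 17 immediate-early genes.

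Gfap in total nuclei of E1 dCre mice stood at 1.65, 0 and 0 CPM in the dark and at 21.2, 18.3, 11.8, 4.85 and 57.5 CPM after light. The E1 groups did not overlap. The share of all genes that separated in this way, here and for the members below, was not counted. In E23 dCre the dark values were 2.51, 3.32, 3.72 and 12.5 CPM and the light values 0.939, 20.8, 17.5 and 7.86 CPM, and in E123 dCre they were 1.53, 0.18, 6.04 and 12.8 CPM against 2.28, 30.6, 10.3 and 2.90 CPM. In E23 and E123 light and dark overlapped. Over the 3 lines the level was 4.03 ± 4.65 CPM in the dark (SD, n = 11) and 15.9 ± 15.3 CPM after light (SD, n = 13). The log2 difference was 2.48 ± 0.53 (SE; edgeR adjusted p = 0.00328). Leaving out each library in turn gave 2.09 to 4.02 and kept the call in 24 of 24 fits. With the length index as a covariate the difference was 1.93 and the edgeR adjusted p 0.0787, so that call ended. Over 9 alternative analyses the difference was 1.93 to 4.01. They include the fits without the dark dCre animals of E1, or of E1 and E123, that stood apart.

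By line, the rise of Gfap was called in E1 dCre only, at 5.20 ± 1.04 (SE; edgeR adjusted p = 0.00976), where 3.68% of genes were called. Dark replicates 2 and 3 were at a count of 0, so this size depends on how counts of 0 are treated and is no bound. Leaving out 1 library gave 4.52 to 9.81. The length index of the E1 dark dCre total libraries was 3.21 ± 0.995 (SD, n = 3). Without dark replicate 2 the difference in E1 was 4.70 and not called (edgeR adjusted p = 0.179), and the E1 call also ended with the length index as a covariate, at 3.58 (edgeR adjusted p = 0.614). No member was called in E23 dCre (0.179% of genes called) or E123 dCre (0.372% called), where 0 and 3 members had an unadjusted p under 0.05 in edgeR. DESeq2 called 0 members there, with 0.523% and 0.985% of genes called. Whether the light response differed between lines was not tested.

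Gjb6, connexin 30, came nearest to Gfap. It was at 0.411, 2.65 and 0 CPM in the dark and 26.8, 6.37, 26.7, 21.8 and 3.80 CPM after light in E1 dCre, with no overlap. In E123 dCre dark values of 0.255, 2.52, 9.18 and 0 CPM were also all below light values of 23.9, 23.8, 12.0 and 14.2 CPM, and in E23 the groups overlapped. The level over lines was 4.03 ± 5.38 CPM in the dark (SD, n = 11) and 15.3 ± 8.20 CPM after light (SD, n = 13). Its log2 difference of 2.39 ± 0.74 missed the threshold (edgeR adjusted p = 0.0554). Without replicate 3 of the E123 dark dCre total libraries it passed, at 2.93 (edgeR adjusted p = 0.0217). Over the same 9 alternative analyses it was 1.6 to 4.1.

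The transporters and Aldoc had smaller differences. Slc1a3 stood at 55.3 ± 36.3 CPM in the dark (SD, n = 11) and 94.2 ± 42.5 CPM after light (SD, n = 13), a log2 difference of 0.97 ± 0.39 (edgeR adjusted p = 0.142). Aldoc stood at 47.4 ± 35.9 and 78.1 ± 18.2 CPM in the same libraries, a difference of 0.92 ± 0.35 (edgeR adjusted p = 0.119). Both were without overlap in E1, while in E23 and E123 light and dark overlapped. For Aldoc, the 4 lowest dark values were 13.6 and 16.1 CPM in E1 and 1.79 and 4.50 CPM in E123, in the 4 animals with the high length index. Slc1a2 (0.30 ± 0.13, edgeR adjusted p = 0.158), Sox9 (1.22 ± 0.51, 0.159), Aqp4 (1.22 ± 0.66, 0.301), Gja1 (1.26 ± 0.71, 0.332) and S100b (0.60 ± 0.37, 0.379) were not called. Aldh1l1 was at 14.0 ± 8.89 CPM in the dark and 13.3 ± 7.20 CPM after light, with a difference of 0.01 ± 0.33.

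**Figure D2:**
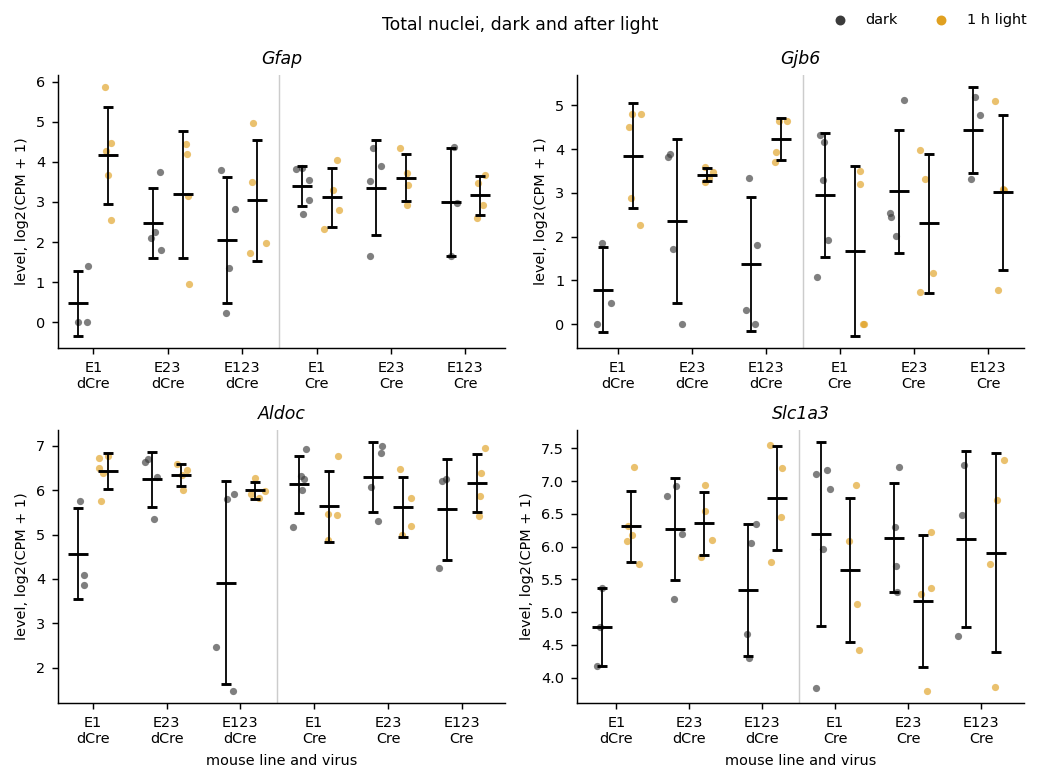
Level of Gfap, Gjb6, Aldoc and Slc1a3 in total nuclei as log2(CPM + 1), by line, virus and light, where each point is a library and bars give the mean ± SD. Under dCre the dark points of line E1 lie below all light points for these 4 genes, for Aldoc only by 52.6 against 53.1 CPM. Under Cre light and dark overlap in every line.

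Under Cre no member was called in total nuclei, where 1.49% of genes were, and 0 of 10 members had an unadjusted p under 0.05 in the edgeR test. DESeq2 called 2.05% of genes and 0 members. By line the called share under Cre was 0.127% in E1, 0.123% in E23 and 0.0566% in E123, again without a member. Gfap was at 10.4 ± 5.88 CPM in the dark and 9.64 ± 4.51 CPM after light (SD, n = 12 each), a log2 difference of −0.13 ± 0.49 (edgeR adjusted p = 0.989). Gjb6 was at 13.8 ± 12.4 and 7.76 ± 9.43 CPM, a difference of −0.97 ± 0.70 (edgeR adjusted p = 0.665). The Cre libraries thus held about as much Gfap in the dark as after light, and in the dark more than the dCre libraries by mean. The test of the difference between the viruses' light responses called no gene of 21213 (edgeR; 1894 had an unadjusted p under 0.05). For Gfap it gave −2.61 (unadjusted p = 0.000713, adjusted p = 0.282) and for Gjb6 −3.36 (unadjusted p = 0.0023, adjusted p = 0.326), so neither was shown to differ. Averaged over both viruses, Gfap rose by 1.18 ± 0.36 (edgeR adjusted p = 0.0332), with 7.78% of genes called. That call was lost in 8 of 48 fits that left out 1 library, and with the length index as a covariate (0.87, edgeR adjusted p = 0.229).

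No member was called for the virus or the line in total nuclei. Cre against dCre called 0.0283% of genes and no member, with Gfap at 0.69 ± 0.36 (edgeR adjusted p = 0.484). E23 against E1 called 0.174% of genes, E123 against E1 1.18% and E123 against E23 7.50%, none of them a member. In edgeR 0 members had an unadjusted p under 0.05. DESeq2 called 0.358%, 2.25% and 9.77% of genes in the same order, and 0 members. The summed level of the members other than Slc1a2, which alone makes up most of the sum, was 154.5 ± 79.2 CPM in the dark and 276.8 ± 70.4 CPM after light under dCre, and 246.6 ± 121 and 193.3 ± 110 CPM under Cre. By group mean the lowest was E1 dark dCre at 102.7 ± 30.9 CPM and the highest E123 light dCre at 283.0 ± 84.3 CPM. Neighbouring groups in this order differed by less than their SDs.

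In VIP nuclei under dCre, S100b, Sox9, Aldoc, Slc1a2 and Gfap rose with light. These are 5 of 10 members, where 3.97% of 20585 genes were called higher and 6.27% in all. The median log2 difference of the members was 2.13, against 0.01 over all genes tested. Of 39 other astrocyte genes tested, 9 rose, among them Phkg1 (1.15), Glul, glutamine synthetase (1.74), and Apoe, apolipoprotein E (2.75), and Slc6a11 fell by 0.85. Without the 2 dark dCre animals of E1 that stood apart, 0.304% of 24049 genes were called and none of the members. Their log2 differences were then 2.50 for S100b, 4.04 for Sox9, 1.46 for Aldoc, 0.68 for Slc1a2 and 2.23 for Gfap.

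S100b had the smallest adjusted p of the members in VIP nuclei. In E1 dCre it was at 0, 0 and 0.888 CPM in the dark and 10.4, 6.48, 13.7, 20.6 and 3.92 CPM after light, and in E23 dCre at 0.965, 3.19, 3.81 and 1.58 CPM against 38.9, 11.3, 9.83 and 8.06 CPM. Neither line had overlap. In E123 dCre the dark values of 2.33, 2.79, 3.63 and 5.56 CPM lay among light values of 14.3, 7.17, 7.53 and 1.26 CPM, with 3 of 4 light libraries above all dark ones. Over lines the level went from 2.25 ± 1.75 CPM (SD, n = 11) to 11.8 ± 9.49 CPM (SD, n = 13), a log2 difference of 2.97 ± 0.53 (SE; edgeR adjusted p = 0.0008). Leaving out each library gave 2.70 to 4.21 with the call kept in 24 of 24 fits, and it was kept with the length index as a covariate. Without both E1 dark animals the difference was 2.50 and not called (edgeR adjusted p = 0.0907). In total nuclei of the same groups S100b went from 7.18 ± 3.77 to 10.4 ± 2.87 CPM, so the dark VIP libraries were the low ones.

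Sox9 was at 0 in the 3 dark E1 dCre VIP libraries and at 1.14, 3.63, 6.13, 5.53 and 0.280 CPM after light. In E23 dCre it was at 0, 1.70, 0 and 1.58 CPM against 14.1, 5.86, 5.40 and 2.86 CPM, and in E123 dCre at 0.875, 0, 1.61 and 1.32 CPM against 7.42, 1.63, 1.98 and 5.03 CPM. By value light lay above dark in all 3 lines, but by small margins. In E1 the lowest light library, replicate 5, held a count of 1 (0.280 CPM), which cannot be told from the dark counts of 0. In E123 the margin was 1.61 to 1.63 CPM. The fitted log2 difference of 4.04 ± 1.06 (edgeR adjusted p = 0.0175) depends on how counts of 0 are treated and is no bound. The call of Sox9 was lost without E1 dark replicate 1 (edgeR adjusted p = 0.0526) and also ended with the length index as a covariate. The dark values, at most 1.70 CPM, rest on counts of at most 8.

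Aldoc went from 29.2 ± 23.8 CPM in the dark to 86.3 ± 84.0 CPM after light, a log2 difference of 1.76 ± 0.51 (edgeR adjusted p = 0.040). Slc1a2 went from 265 ± 51.2 to 414 ± 208 CPM, a difference of 0.68 ± 0.21 (edgeR adjusted p = 0.0415), with light libraries of E23 replicate 1 (765 CPM) and E123 replicates 1 and 4 (718 and 726 CPM) far above the rest. Gfap went from 3.28 ± 3.23 to 17.8 ± 19.8 CPM, a difference of 2.73 ± 0.81 (edgeR adjusted p = 0.0476). For these 3 genes the groups overlapped in every line. With the length index as a covariate, where 0.675% of genes were called, the calls ended at 0.51 for Aldoc, 0.72 for Slc1a2 and 0.72 for Gfap. The adjusted p of all 3 lay near the threshold. Leaving out 1 library gave 2.29 to 4.68 for Gfap and ended its call in 14 of 24 fits, with adjusted p up to 0.117. For Slc1a2 it gave 0.47 to 0.77 and ended the call in 14 fits, with adjusted p up to 0.149, and for Aldoc 1.49 to 2.04 and 11 fits, with adjusted p up to 0.0906. With library sizes from total counts alone the adjusted p of Gfap was 0.0528 and with sex as a covariate 0.0531. Gja1 (2.90 ± 0.90, edgeR adjusted p = 0.0583), Slc1a3 (2.14 ± 0.83, 0.134), Gjb6 (2.12 ± 1.14, 0.299), Aqp4 (0.89, 0.681) and Aldh1l1 (−0.12, 0.98) were not called.

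**Figure D3:**
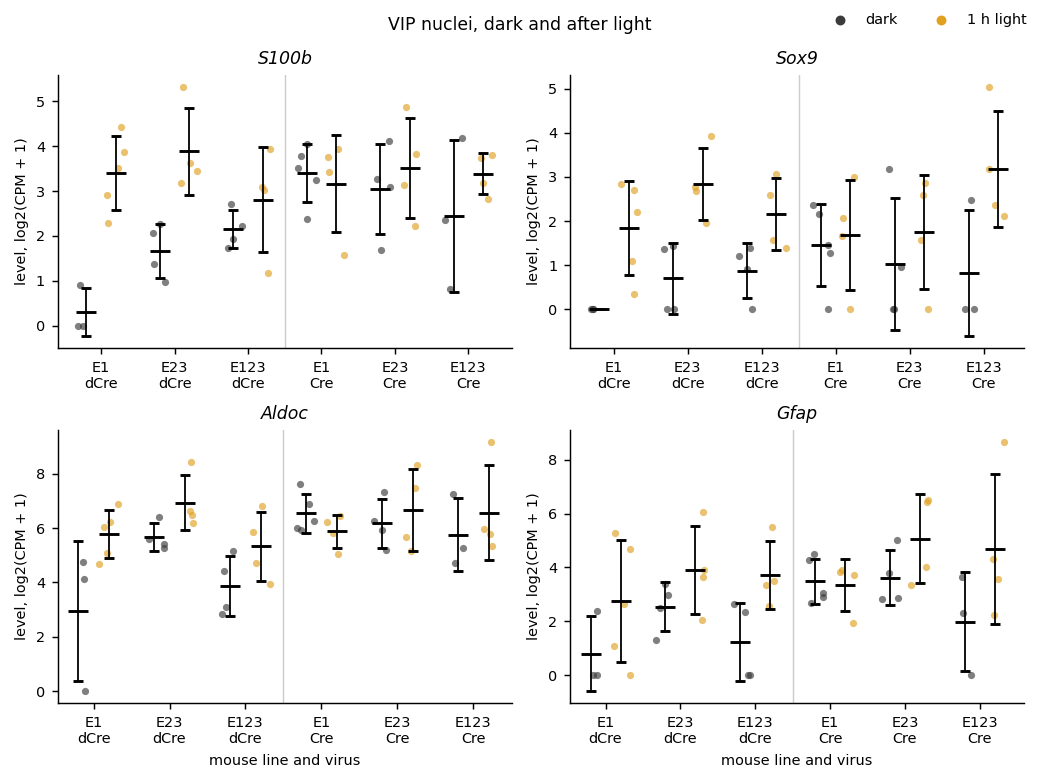
Level of S100b, Sox9, Aldoc and Gfap in VIP nuclei as log2(CPM + 1), by line, virus and light, where each point is a library and bars give the mean ± SD. Every dark dCre point of Sox9 lies at or under 1.70 CPM and every one of S100b at or under 5.56 CPM. The Cre points of both light conditions run from 0.759 to 28.1 CPM for S100b. For Sox9 they run from 0 to 31.9 CPM, against 0.280 to 14.1 CPM in the dCre light points.

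Oligodendrocyte and microglial markers also had called members in the same libraries. The summed oligodendrocyte markers in VIP nuclei were at 388.5 ± 171 CPM in dark dCre and 750.0 ± 553 CPM in light dCre, and all 14 had a difference above 0 (median 1.56), with Mbp, myelin basic protein, called at 1.58. Of 11 microglial markers 2 were called, C1qb and C1qc. Of 6 markers of oligodendrocyte precursors 3 had a difference above 0 and 3 below, and Lhfpl3 was called lower (−0.66, edgeR adjusted p = 0.0306). The summed precursor markers were at 464.6 ± 208 CPM in dark dCre and 328.4 ± 167 CPM in light dCre. The summed members without Slc1a2 were at 66.1 ± 39.7 CPM in dark dCre and 209.7 ± 213 CPM in light dCre. Replicate 1 of the E23 light dCre VIP libraries held 854 CPM of this sum and 2514 CPM of the oligodendrocyte markers. The other light dCre VIP libraries reached at most 336 and 765 CPM. That library was also the highest light dCre VIP library for S100b, Sox9, Aldoc, Slc1a2 and Gfap. The length index of the VIP dark dCre libraries was 3.68 ± 1.03 (SD, n = 3) in E1 and 3.65 ± 0.755 (SD, n = 4) in E123. The part of these in the members' light difference was not tested. The difference between the fractions' light responses under dCre called no gene of 22926 (edgeR; 1361 had an unadjusted p under 0.05). For S100b it was 2.36 ± 0.64 (unadjusted p = 0.000288, adjusted p = 0.358), so a larger response in VIP than in total nuclei was not shown.

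Under Cre no member was called in VIP nuclei, where 0.350% of genes were. In edgeR 2 members had an unadjusted p under 0.05, and DESeq2 called 0.874% of genes and 0 members. All 10 had a difference above 0, with Gfap at 1.98 ± 0.76 (edgeR adjusted p = 0.37) and Aqp4 at 2.33 ± 1.07 (edgeR adjusted p = 0.501). Both values turn on replicate 3 of the E123 light Cre group, with 156.4 CPM of Aqp4. Without it Gfap stood at 0.89 (edgeR adjusted p = 0.830), Aqp4 at 1.00 (edgeR adjusted p = 0.904), and 8 of 10 members had a difference above 0. S100b stood at 9.02 ± 5.59 CPM in dark Cre and 10.9 ± 6.70 CPM in light Cre libraries (SD, n = 12 each), about the level of the light dCre libraries. Cre against dCre in VIP nuclei called S100b (1.28 ± 0.36, edgeR adjusted p = 0.0332) and Aldoc (1.23 ± 0.36, edgeR adjusted p = 0.0468), where 3.74% of genes were called. Of other astrocyte genes Slc39a12, a zinc transporter, Glul (1.19) and Atp1b2 (0.76) were higher under Cre, and of reactive genes Vim, vimentin. Without the 2 dark dCre animals of E1, where 0.0249% of genes were called, S100b stood at 1.04 and Aldoc at 1.08 and neither was called. With the length index as a covariate no gene of 20585 was called, with S100b at 0.69 and Aldoc at 0.19 (edgeR; unadjusted p = 0.0802 and 0.590). Leaving out 1 library ended the call of S100b in 9 of 48 fits and that of Aldoc in 29 of 48. This comparison and the light comparison share the dark dCre libraries, so they are not independent.

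**Figure D4:**
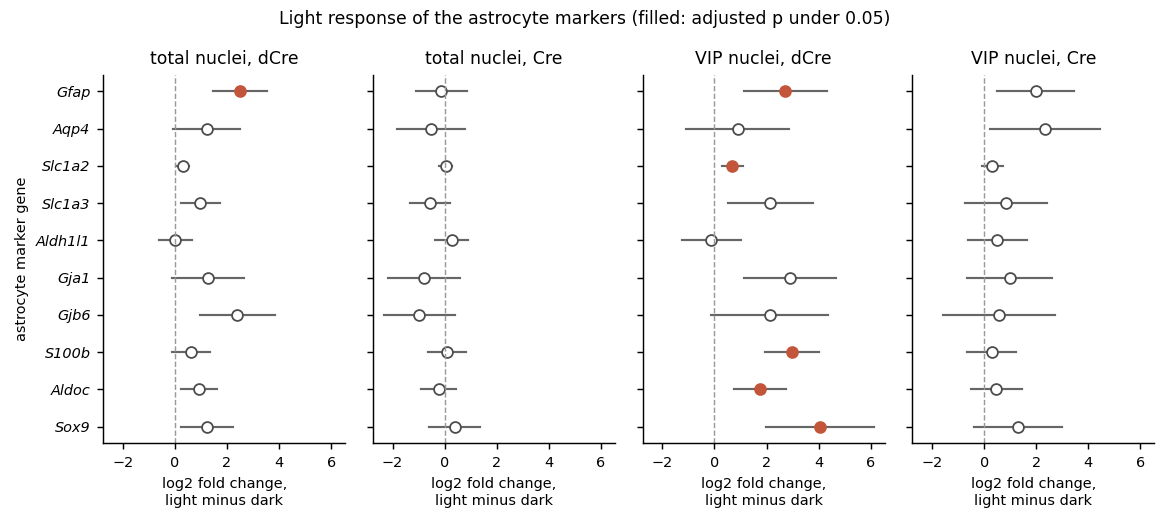
Log2 difference between light and dark of each of the 10 members in total and VIP nuclei under dCre and Cre, with 95% intervals of the edgeR fit. Under dCre Gfap stands at 2.48 in total and S100b at 2.97 in VIP nuclei, and under Cre the intervals of nearly all members span 0.

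Whether the members followed each other from library to library was described with group means removed. In total nuclei 8 of 45 pairs had a Pearson correlation past an adjusted permutation p of 0.05 (6 by Spearman), the median r was 0.18, and 34 pairs were positive. In VIP nuclei 31 of 45 pairs passed (32 by Spearman), the median r was 0.47 and all 45 were positive. Slc1a3 and Gja1 were the closest pair in both, with r = 0.795 and rho = 0.816 in total nuclei and r = 0.802 in VIP nuclei over 48 libraries each. Without the 2 libraries farthest from the median of Slc1a3, r in total nuclei was 0.760. Aldh1l1 followed the others least, with a median r of −0.09 in total and 0.21 in VIP nuclei. Gfap had no partner past the threshold in total nuclei and 6 in VIP nuclei.

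**Figure D5:**
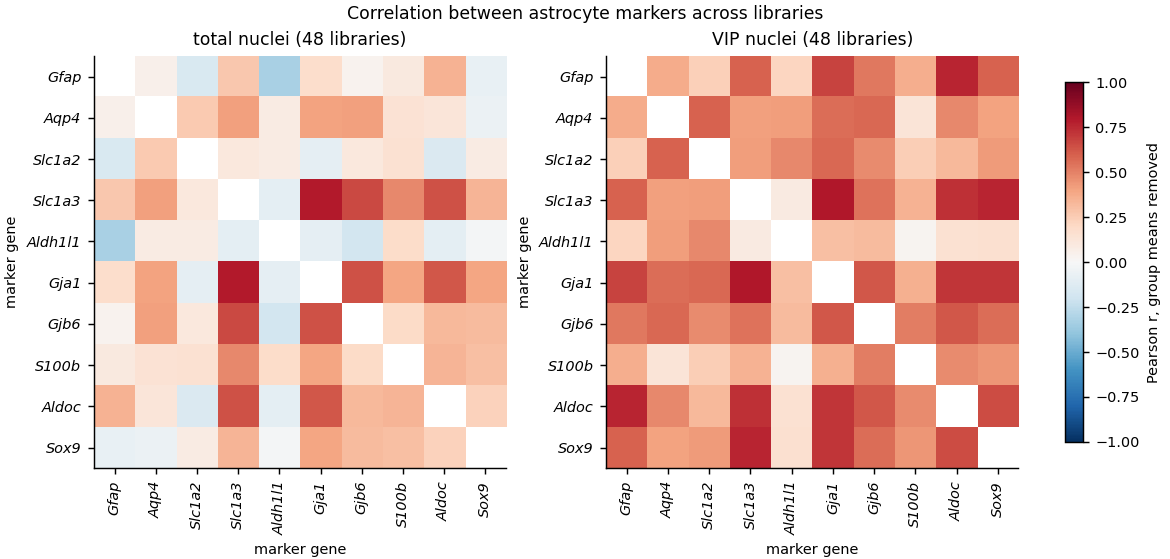
Pearson r between the 10 members across 48 total (left) and 48 VIP libraries (right), on log2(CPM + 1) with group means removed. VIP nuclei show positive values throughout (median 0.47), and in total nuclei 5 of the 6 pairs among Slc1a3, Gja1, Gjb6 and Aldoc lie between 0.617 and 0.795, with all other pairs between −0.325 and 0.483.

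The summed members without Slc1a2 followed the summed 40 other astrocyte genes with r = 0.886 in total and 0.921 in VIP nuclei. This is a description over 48 libraries, with both sums taken from the same library. They followed the oligodendrocyte markers with r = 0.494 in total and 0.849 in VIP nuclei and the microglial markers with 0.471 and 0.307. With the length index r was −0.616 and −0.599, and with GABAergic markers −0.336 and −0.353. Outside the list, the genes most like the members in total nuclei, by Pearson r over 48 libraries with the mean of the standardised members, were Mfge8 (0.825) and Gpr37l1 (0.817) among 13121 ranked. In VIP nuclei they were Apoe (0.841), Sdc4 (0.838), S1pr1 (0.818) and Cst3 (0.813) among 12901, and the oligodendrocyte genes Mobp and Mbp were also among the first 10.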

How the data were processed

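The deposited file holds raw read counts per gene and library. Per the submitters' processing notes, the authors used cutadapt 1.18, STAR 2.5.3a and HOMER 4.9.1 with mm10; the annotation, counting mode and strand setting are not given in the sources used here. PCR ran for 17 cycles without molecular identifiers, so counts are not independent molecules. GENCODE symbols matched 55154 of 55335 identifiers; the 181 unmatched held 0.0225% of counts. Total nuclei (48 libraries, 21213 genes), VIP nuclei (48, 20585) and all 96 libraries (22926) were fitted with edgeR 4.0.16 in R 4.3.3: TMM, the default low-count filter, robust quasi-likelihood F test, 1 coefficient per group, Benjamini-Hochberg adjustment over all genes. CPM levels use TMM sizes of the 96-library fit. Where a group was all at 0, the standard error was taken from F. Correlations used log2(CPM + 1), a pseudocount of 1, and 100000 permutations. On simulated counts, light under dCre in total nuclei recovered 25 of 100 genes changed 2-fold and 49 of 100 changed 4-fold. DESeq2 1.42.0 was an alternative. Members and lists were chosen with earlier results of these data known; named list genes are those with the smallest p among those called, up to 4 a direction. Aqp4's position is not printed.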

Additional observations from a re-analysis of the deposited data

Results flagged for a closer look

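Each member's level was checked in groups of 4 or 5 libraries for a highest or lowest library far from the rest. Of 200 such checks 11 stood out, and chance gives about 1 in 20, or 10. In VIP nuclei of E1 light Cre, Gfap was low in replicate 1 at 2.79 CPM, Aqp4 was high in replicate 2 at 10.4 CPM, and Gjb6 was low in replicate 4 at 1.68 CPM. In total nuclei Aqp4 was at 0 CPM in E23 dark dCre replicate 4, where the others had 5.15 to 7.54 CPM. Slc1a2 was high in VIP nuclei of E23 light dCre replicate 1 at 764.9 CPM, against 218.8 to 252.0 CPM in the others. It was low in replicate 2 of E23 light Cre in both fractions, at 294.9 CPM in total and 247.8 CPM in VIP nuclei. Aldh1l1 was at 0 CPM in VIP nuclei of E123 light dCre replicate 3, where the others had 16.8 to 23.9 CPM. Gja1 stood at 187.7 CPM in VIP nuclei of E123 light Cre replicate 3, against 4.86 to 9.51 CPM in the others. This library was the highest of all for every other member too, except S100b and Aldh1l1. Gjb6 was high in VIP nuclei of E123 dark dCre replicate 4 at 8.20 CPM and in total nuclei of E23 dark Cre replicate 2 at 33.7 CPM.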

How the results depend on the processing

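The number of members called depended on the settings, and the share of all genes called in the same setting is given in brackets. Without a low-count filter it was 5 instead of 1 for light in total nuclei under dCre (4.52%) and in its E1 part (3.39%), 5 instead of 0 for the virus difference (0.350%), 8 instead of 5 for light in VIP nuclei under dCre (4.73%), 2 instead of 0 for light in VIP nuclei under Cre (0.637%), 6 instead of 2 for Cre against dCre in VIP nuclei (4.02%), 1 instead of 0 for E123 against E1 (2.18%) and for light in E23 Cre (0.348%), and 2 instead of 0 in E123 dCre (0.725%). With the length index as a covariate it was 0 for light in total nuclei under dCre (2.02%), over both viruses (5.22%), in E1 dCre (0.0189%), and for Cre against dCre in VIP nuclei (0%), and 1 for light in VIP nuclei under dCre (0.675%) and in E123 dCre (0.877%). Without 2 dark dCre animals of E1, and without 4 of E1 and E123, it was 0 for light in VIP nuclei under dCre (0.304% and 0.192%), for Cre against dCre in VIP nuclei (0.0249% and 0.0126%) and for light in E1 dCre (0% in both), and 1 instead of 3 for VIP against total nuclei (27.1% and 26.4%); these settings leave 1 library in E1 dark dCre, whose spread is assumed from the other groups. DESeq2 gave 2 for light in total nuclei under dCre (7.61%) and for E1 dCre (6.84%), and library sizes from total counts alone gave 6 for VIP against total nuclei (38.6%). The cause was not tested.

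With a replicate block the count was 5 for VIP against total nuclei (36.7%), 2 for light in total nuclei under dCre (5.69%) and 0 for Cre against dCre in VIP nuclei (3.96%). Same-numbered VIP and total libraries share a sex label in 48 of 48 pairs, 31 of 48 correlated best with their own number and 26 of 48 correlated over 0.1, and the labels do not say whether they come from the same animal. The fit without the block, kept as the main one, treats same-numbered VIP and total libraries as independent. If they come from the same animal, its standard errors and adjusted p ignore that pairing. The blocked calls stand beside it. Between light and dark or Cre and dCre a number is shared only by name. The block turned Aldoc in VIP against total nuclei to −0.057, and Gfap for light under Cre in total nuclei to 0.076 and in E1 to 0.055.

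Leaving out 1 library at a time gave 1 to 2 members for light in total nuclei under dCre, 0 to 1 over both viruses and 0 to 2 in E1 dCre. It gave 1 to 6 for light in VIP nuclei under dCre and 0 to 3 for Cre against dCre in VIP nuclei. Leaving out a replicate number gave 1 to 5 for VIP against total nuclei. The share of all genes called in these fits is not given here, so the spread cannot be assigned to the members alone. The call of Gfap over both viruses was lost without total libraries of E1 light dCre replicate 5, E1 dark dCre replicate 2, E1 light Cre replicate 3, E123 light dCre replicate 2, E123 dark Cre replicates 1 and 2 and E23 light dCre replicates 2 and 3. In VIP against total nuclei, leaving out a replicate number gave Gfap at −0.35 to 0.89, Gjb6 at −1.71 to 0.064 and Aldoc at 0.017 to 0.17.

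Several differences changed sign between settings, and not all of them lay near 0. Gjb6 in VIP against total nuclei was 0.22 without 2 and 0.23 without 4 dark dCre animals; Aldoc there was −0.031 without the E123 light Cre VIP replicate 3. For light in total nuclei under dCre, Aldh1l1 was −0.00148 with DESeq2's size factors and −0.00124 with DESeq2, and Gja1 was −0.027 with the length index. For light in VIP nuclei under dCre, Aldh1l1 was 0.020 with total counts, 0.11 with the length index, 0.11 without 2 and 0.10 without 4 animals. Gfap in E23 Cre was −0.0016 with total counts. Across single libraries left out, Aldh1l1 for light spanned −0.16 to 0.13 in total and −0.40 to 0.12 in VIP nuclei, and Gfap −0.29 to 0.26 under Cre, −0.29 to 0.44 in E23 Cre, −0.015 to 2.20 in E123 dCre and −0.67 to 0.94 in E123 Cre. Sex as a covariate and DESeq2's size factors moved no count past 1.5 times. A level under the limit that a count of 0 allows in its own library cannot be told from 0. Across VIP libraries of different depth this limit ran from 0.329 to 1.92 CPM.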
